A study of Mus musculus with 6 samples.

Results

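Plasmacytoid dendritic cells (pDCs) are blood cells with a shared set of surface and effector genes, and 10 of these signature genes are described here: *Siglech*, *Bst2*, *Ly6d*, *Lair1*, *Lag3*, *Klk1*, *Cox6a2*, *Upb1*, *Pacsin1* and *Plac8*. They were taken by symbol, through probe sets to which the platform annotation gives a single symbol, keeping the probe set with the highest mean over the 6 arrays where a gene has several. By this rule 9 of the 10 genes were measured, each with a single probe set, among 19937 genes and 21640 probe sets with 1 symbol. No probe set had *Klk1* as its single symbol, so its level was not analysed here. RNA came from pDCs sorted as B220+ CD11c+ cells out of KO and WT marrow cultures of 3 C57BL/6 mice, and there was 1 Affymetrix Mouse Gene 1.0 ST array for each of the 6 cultures.

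All cells carried floxed alleles of both *Gfi1* and *Gfi1b* (Gfi1f/f; Gfi1bf/f) and ERCre, a Cre recombinase that tamoxifen switches on and that the study's mice carry in the *Rosa26* locus. Marrow from each mouse was grown in Flt-3L, a cytokine that drives dendritic cell development, at 25 ng/ml. The KO culture of each mouse was given 1 µM tamoxifen during differentiation, and the WT culture of the same mouse was left untreated. The WT cells thus held the floxed alleles and the Cre as well, and deletion in the KO cultures was described by the study as inefficient. Loss of the *Gfi* genes and exposure to tamoxifen or active Cre cannot be told apart in these 6 arrays. The age of the mice was not given in the labels.

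pDCs sense viral nucleic acids in endosomes and secrete large amounts of type I interferon. In the mouse they are recognised by the lectin Siglec-H and by BST2, together with B220 and low levels of CD11c, and they share several genes with B lymphocytes. Their identity is held by the E protein E2-2, the product of *Tcf4*, and several signature genes are known as markers of the lineage although their work in pDCs is little understood. The study asked with these arrays whether GFI proteins, which are transcriptional repressors, control genes of the lymphoid or pDC program.

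Mouse 1 stood apart in both of its cultures along the first principal component, to which 70.8% of the variance belonged, so that values without mouse 1 are given beside the results. The targeted gene *Gfi1b* had intensities of 194, 279 and 259 in the KO cultures of mice 1, 2 and 3, against 179, 161 and 155 in the WT cultures. *Gfi1* had 60.5, 67.1 and 61.9 in the KO cultures, against 56.1, 47.8 and 43.3 in the WT cultures. Each has 1 probe set for the whole transcript, which does not show whether the floxed exons were deleted. *Gfi1* lay near the background, taken as the 95th percentile of 1204 probe sets of olfactory and vomeronasal receptors, at an intensity of 61.8. All 9 signature genes, *Siglech* and *Bst2* among them, lay above this background in every array. At an adjusted p of 0.05 (limma, Benjamini-Hochberg) 0% of the 21640 probe sets were called, and likewise 0% with the mouse as a block, so no signature gene was called in either fit. At an unadjusted p under 0.05 there were 1525 without and 2911 with the block.

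In KO minus WT, the mean log2 differences of the 9 signature genes were all above 0, with a median of 0.38 against 0.03 over all probe sets, but none passed the test. Without mouse 1 that median was 0.65, and without mouse 3 it was 0.22. The differences were not alike in the 3 mice: mouse 1 had a median of 0.01 over the 9 genes, mouse 2 one of 0.48 and mouse 3 one of 0.71, where all probe sets had medians of -0.00072, 0.02 and 0.04. In mouse 1, 5 of the 9 were higher in the KO culture, while in mice 2 and 3 all 9 were. Over all probe sets, 37.5% were higher in KO in both mice 2 and 3. All probe sets include dim ones. The median difference was -0.05 over the 10820 probe sets of higher mean level, and 0.14 over the receptor probe sets. The shares of all probe sets given here and below were not taken at matched levels. In bulk RNA from sorted cells, fewer pDCs in a sample and less of a transcript per pDC cannot be told apart.

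Of the surface proteins, Siglec-H is an endocytic receptor that signals through the adaptor DAP12 and marks mouse pDCs. *Siglech* had intensities of 6439, 4795 and 4169 in the KO cultures of mice 1, 2 and 3, against 6917, 3900 and 2721 in the WT cultures. The WT culture of mouse 1 was the highest of all and that of mouse 3 the lowest, so the WT values enclosed the KO values on both sides. The log2 difference was -0.10, 0.30 and 0.62 within mice 1, 2 and 3, with a mean of 0.27 (standard error 0.35, limma adjusted p = 0.87), or 0.46 without mouse 1 (limma adjusted p = 0.28). In the fit of 2 groups, which leaves the pairing by mouse out, the 95% interval of this mean ran from -0.58 to 1.12. With the mouse as a block it ran from -0.09 to 0.63. Neither interval shows that the cultures were alike. The standard errors given here and below are from fits of 2 groups and so include the spread between mice.

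The sequence before the start of *Siglech* is shown because E2-2 and other E proteins bind E-boxes, whose letters are CANNTG. It covers the 250 bases before the start, chr7:55767934-55768183 on the plus strand of GRCm38.p6 from RefSeq, with the E-boxes in capitals.
Siglech: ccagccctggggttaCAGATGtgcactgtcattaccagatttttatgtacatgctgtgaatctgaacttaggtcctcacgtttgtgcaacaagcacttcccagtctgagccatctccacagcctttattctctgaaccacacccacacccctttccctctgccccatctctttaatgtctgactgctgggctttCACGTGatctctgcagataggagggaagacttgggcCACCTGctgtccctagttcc

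Promoter windows of 300 bases, with 250 before and 50 after the start, were at hand for 6 of the 9 measured genes. *Ly6d*, *Lag3* and *Cox6a2* were not among them. On either strand, 5 of the 6 genes held CANNTG (*Siglech*, *Bst2*, *Lair1*, *Upb1* and *Plac8*, the last in 1 of its 2 windows), as did 72.3% of 32851 windows in the RefSeq table, and *Pacsin1* held none. CAGGTG, a form that is contained in CANNTG, was in the windows of *Siglech* and *Bst2* and in 20.2% of all windows. AAATCA, part of the binding site of GFI proteins, was in none of the 6 and in 14% of all windows. These matches are a description of the letters and not of binding.

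BST2, or tetherin, holds budding virus at the cell surface and is induced by interferon in many cell types, while resting mouse pDCs carry it constitutively. *Bst2* had intensities of 6766, 6053 and 5407 in the KO cultures of mice 1, 2 and 3, against 7326, 4908 and 4371 in the WT cultures. Again the WT culture of mouse 1 stood highest and the WT cultures of mice 2 and 3 lowest. The log2 difference was -0.11, 0.30 and 0.31 in mice 1, 2 and 3, with a mean of 0.16 (standard error 0.21, limma adjusted p = 0.87), or 0.30 without mouse 1 (limma adjusted p = 0.29).

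The *Bst2* promoter is shown for its match to the interferon response element, searched as GAAA repeated after 2 bases of any kind and set in capitals, which was found in 3.44% of all windows and in no other of the 6 genes. A pair of matches overlap in it. The printed part is chr8:71537473-71537722 on the minus strand of GRCm38.p6.
Bst2: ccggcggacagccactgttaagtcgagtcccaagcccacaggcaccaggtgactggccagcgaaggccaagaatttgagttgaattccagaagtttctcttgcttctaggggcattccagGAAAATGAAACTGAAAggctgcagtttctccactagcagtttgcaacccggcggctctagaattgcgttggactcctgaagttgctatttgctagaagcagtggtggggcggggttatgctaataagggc

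Other interferon-induced genes were not ordered like *Bst2*. Of 17 measured, 17 were higher in the KO culture of mouse 1, 4 in that of mouse 2 and 6 in that of mouse 3, with a median log2 difference of 0.09 and medians of 0.60, -0.23 and -0.11 in mice 1, 2 and 3. Their member with the smallest p was *Usp18*, which removes the ubiquitin-like ISG15 from proteins, at 438, 406 and 390 in the KO cultures and 323, 328 and 328 in the WT cultures. The KO and WT values of *Usp18* did not overlap, with KO higher, as in 10.2% of all probe sets. It did not pass the test (log2 difference 0.33, standard error 0.09, limma adjusted p = 0.69).

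Ly6D is a surface protein anchored in the membrane by a lipid tail, known as a marker of lymphoid progenitors with B cell potential and of pDCs. *Ly6d* had intensities of 3765, 2835 and 3017 in the KO cultures of mice 1, 2 and 3, against 2849, 1706 and 1375 in the WT cultures. The groups overlapped only because the WT culture of mouse 1 lay just above the KO culture of mouse 2, and within each mouse the KO culture was higher. Its log2 difference was 0.40, 0.73 and 1.13 in mice 1, 2 and 3, with a mean of 0.76 (standard error 0.28), the largest of the 9 genes. *Ly6d* was the one signature gene with an unadjusted p under 0.05 in the fit of 2 groups, where 5.14% of all probe sets were higher at that threshold. Its limma adjusted p was 0.69, and 0.29 with the mouse as a block. Without both arrays of mouse 1 the difference was 0.93 (standard error 0.14, limma adjusted p = 0.067).

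Relatives of *Ly6d* were mostly at low levels, and 7 of 16 genes whose symbols start with Ly6, *Ly6d* included, were above the receptor background. Their median log2 difference was 0.14, as high as the median of the receptor probe sets themselves, 0.14. Besides *Ly6d*, 2 genes had an unadjusted p under 0.05. *Ly6g5c* averaged 25.3 ± 1.91 in the KO and 20.5 ± 0.60 in the WT cultures (SD, n = 3 each), and *Ly6g6g* 52.5, 50.4 and 42.8 in the KO and 39.4, 39.7 and 35.9 in the WT cultures. Both lie within the background, where the receptor probe sets were also higher in KO.

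LAIR-1 is an inhibitory receptor for collagen, found on most leukocytes, whose ITIM motifs recruit the phosphatases SHP-1 and SHP-2. *Lair1* had intensities of 3092, 2030 and 1828 in the KO cultures of mice 1, 2 and 3, against 3445, 1847 and 1516 in the WT cultures. It had the smallest mean log2 difference of the 9, at 0.08 (standard error 0.35, limma adjusted p = 0.97), with -0.16, 0.14 and 0.27 in mice 1, 2 and 3. Leaving out the KO array of mouse 1 gave a mean of -0.14, leaving out the WT array of mouse 2 or 3 gave -0.02 or -0.16, and leaving out mouse 3 gave -0.0097. Without mouse 1 it was 0.20 (limma adjusted p = 0.47). Among 14 other ITIM receptors and their phosphatases the median was -0.03, with none past an unadjusted p of 0.05 in the fit of 2 groups and 2 lower in KO with the block, *Pilra* and the inhibitory Fc receptor *Fcgr2b* (limma adjusted p of 0.32 and 0.31). *Ptpn11*, which encodes SHP-2, had a log2 difference of -0.10 (standard error 0.08), and *Pilra*, an inhibitory receptor of myeloid cells, one of -0.60 (standard error 0.46).

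LAG-3 binds MHC class II and restrains T cells, and mouse pDCs are known to express it without activation. *Lag3* had intensities of 1004, 746 and 572 in the KO cultures of mice 1, 2 and 3, against 909, 536 and 309 in the WT cultures. The KO culture was higher in each mouse, by log2 differences of 0.14, 0.48 and 0.89, although the groups overlapped through mouse 1. The mean was 0.50 (standard error 0.41, limma adjusted p = 0.79), or 0.68 without mouse 1 (limma adjusted p = 0.27). Of its ligands, the MHC class II genes *H2-Aa*, *H2-Ab1* and *H2-Eb1* had log2 differences of 0.09, 0.01 and 0.12. *Adam10*, a protease that sheds LAG-3, had 354, 364 and 305 in the KO cultures and 417, 426 and 491 in the WT cultures. Its log2 difference was -0.38 (standard error 0.12, limma adjusted p = 0.69), and *Adam17*, the other sheddase, was at -0.22 (standard error 0.18). *Cd4*, a relative of *Lag3* that mouse pDCs also carry in part, was at 0.60, -0.06 and 0.60 in mice 1, 2 and 3. Of the 9 partners of LAG-3, *Adam10* alone had an unadjusted p under 0.05 in the fit of 2 groups, and with the block *Adam10* was lower and *Cd4* higher at that threshold.

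Around *Siglech*, *Tyrobp*, which encodes its adaptor DAP12, had 7006, 6816 and 6714 in the KO cultures and 7442, 6628 and 6330 in the WT cultures, a log2 difference of 0.01 (standard error 0.10). Its level thus varied less than that of *Siglech* in both groups. The 9 genes of the Siglec family and its adaptors had a median of -0.07, with none past an unadjusted p of 0.05 in the fit of 2 groups and 1 lower with the block, *Cd33* (limma adjusted p = 0.31). *Cd33*, another Siglec, was at -0.41 (standard error 0.31) and *Syk*, the kinase downstream of DAP12, at -0.19 (standard error 0.09).

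**Figure D1:**
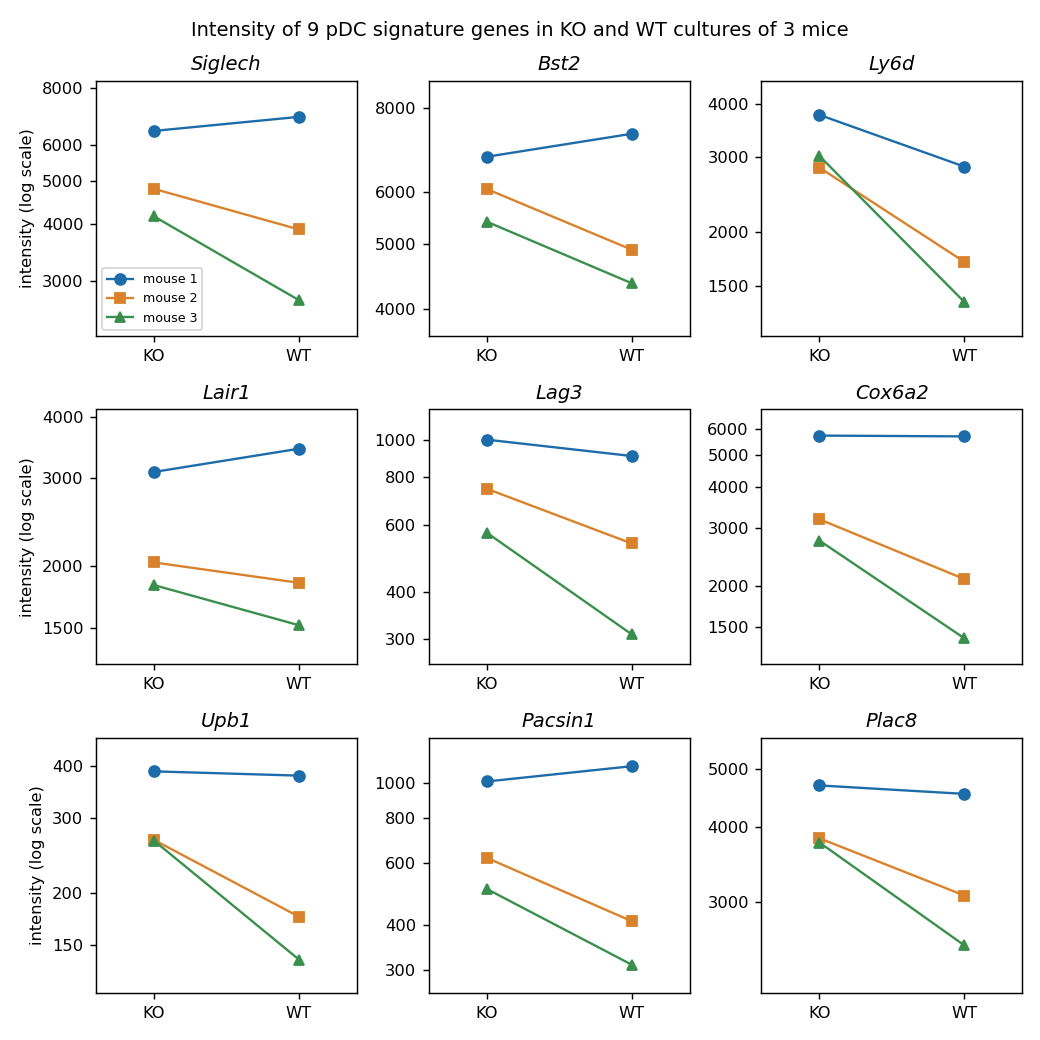
Intensity of the 9 signature genes (y axis, log scale, its range set for each gene) in the KO (left) and WT (right) culture of each mouse, with a line for each mouse. In WT cultures every gene is highest in mouse 1 and lowest in mouse 3, and the lines of mice 2 and 3 are higher at KO for all 9 genes.

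Among the effector genes, *Cox6a2* encodes the heart and muscle form of a subunit of cytochrome c oxidase, complex IV of the respiratory chain, and is also found in pDCs. *Cox6a2* had intensities of 5711, 3182 and 2742 in the KO cultures of mice 1, 2 and 3, against 5679, 2095 and 1385 in the WT cultures. Mouse 1 was far above the other mice in both cultures, and its KO and WT values were nearly the same. The log2 difference was 0.01, 0.60 and 0.99 in mice 1, 2 and 3, with a mean of 0.53 (standard error 0.55, limma adjusted p = 0.84), or 0.79 without mouse 1 (limma adjusted p = 0.17). Its ubiquitous counterpart *Cox6a1* had 3428, 3550 and 3566 in the KO cultures and 3344, 3834 and 3544 in the WT cultures, a log2 difference of -0.02 (standard error 0.09). Of 14 other nuclear subunits of complex IV none had an unadjusted p under 0.05, and their median was 0.05. With the block 1 was higher and 1 lower at that threshold.

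*Upb1* encodes beta-ureidopropionase, the last enzyme of pyrimidine breakdown. It had intensities of 388, 267 and 266 in the KO cultures of mice 1, 2 and 3, against 379, 175 and 139 in the WT cultures. The KO cultures of mice 2 and 3 were nearly equal, while their WT cultures lay below every KO culture. The log2 difference was 0.03, 0.61 and 0.94, with a mean of 0.53 (standard error 0.38, limma adjusted p = 0.78), or 0.77 without mouse 1 (limma adjusted p = 0.10). The enzymes that act before it, dihydropyrimidine dehydrogenase (*Dpyd*) and dihydropyrimidinase (*Dpys*), had KO means of 17.0 and 32.2 and WT means of 15.4 and 29.2, all within the background. Of 8 other genes of the pathway measured, 2 were above it and none had an unadjusted p under 0.05, against 1, higher in KO, with the block.

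PACSIN1 bends membranes and binds dynamin during endocytosis. In human pDCs it has been tied to interferon production through TLR7 and TLR9. *Pacsin1* had intensities of 1013, 619 and 506 in the KO cultures of mice 1, 2 and 3, against 1118, 411 and 310 in the WT cultures. As for *Siglech*, the WT culture of mouse 1 was highest and that of mouse 3 lowest. The log2 difference was -0.14, 0.59 and 0.71, with a mean of 0.38 (standard error 0.51, limma adjusted p = 0.87), or 0.65 without mouse 1 (limma adjusted p = 0.18). Its widely expressed relative *Pacsin2* was at -0.12 (standard error 0.12), and *Dnm2*, the ubiquitous dynamin, at -0.23 (standard error 0.09, limma adjusted p = 0.70). *Dnm2* had 637, 623 and 580 in the KO cultures and 688, 733 and 733 in the WT cultures. The 10 endocytosis genes had a median of -0.08, and with the block 0 had an unadjusted p under 0.05.

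PLAC8 is a small cysteine-rich protein of many leukocytes. *Plac8* had intensities of 4691, 3830 and 3768 in the KO cultures of mice 1, 2 and 3, against 4542, 3074 and 2538 in the WT cultures. The groups overlapped through the WT culture of mouse 1. The log2 difference was 0.05, 0.32 and 0.57, with a mean of 0.31 (standard error 0.23, limma adjusted p = 0.78), or 0.44 without mouse 1 (limma adjusted p = 0.20).

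*Klk1*, a tissue kallikrein, had no probe set with a single symbol. Of 22 other genes of the kallikrein family measured, 4 were above the receptor background. Their median log2 difference was 0.13. *Klk1b27* had 428, 241 and 160 in the KO cultures of mice 1, 2 and 3, against 366, 334 and 231 in the WT cultures. It was thus lower in the KO cultures of mice 2 and 3, unlike the 9 signature genes (this gene was chosen after its values were seen). *Klk1b11* had 14.8, 19.6 and 28.0 in the KO cultures and 39.6, 63.6 and 342 in the WT cultures. All its KO values and the WT value of mouse 1 lay within the background, so no fold is given. Klk1b genes are close copies of each other and of *Klk1*, so their probe sets may share signal, and these values are uncertain. *Klk1b7-ps* (0.41), *Klk7* (0.37) and *Klk8* (0.31) were higher in KO at an unadjusted p under 0.05, and *Klk1b11* was lower. In the fit of 2 groups 5.14% of all probe sets were higher at that threshold, as were 147 of the 1204 receptor probe sets. *Klk1b7-ps* and *Klk8* lay within the background, and so did *Klk7* in the WT culture of mouse 2 (61.6).

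**Figure D2:**
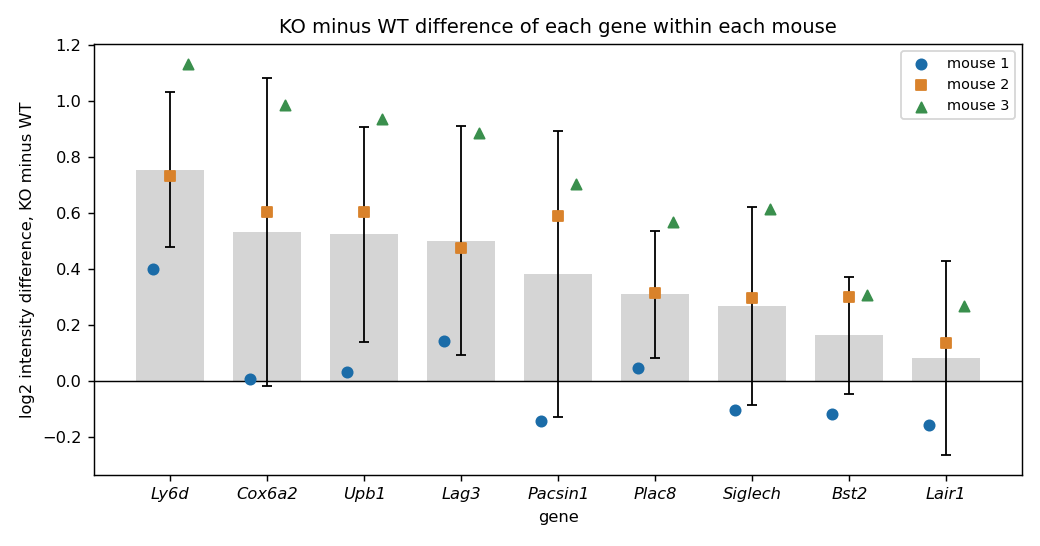
Log2 intensity difference, KO minus WT (y axis), of each signature gene (x axis, in order of the mean). Symbols are the 3 mice, bars the mean over the mice and lines 1 standard error from limma's fit of 2 groups. That fit leaves the pairing by mouse out. Mouse 1 is lowest and mouse 3 highest for all 9 genes, for *Ly6d* with 0.40 and 1.13.

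The 9 genes had in common the order of the cultures, and the counts that follow were chosen after their values were seen. All 9 had WT levels in the order mouse 1, mouse 2, mouse 3, which held for 29.5% of all probe sets. Both cultures of mouse 1 lay above all cultures of mice 2 and 3 for 8 of the 9 (21.6% of all probe sets), with *Ly6d* as the exception. The KO minus WT difference was largest in mouse 3, then mouse 2, then mouse 1 for all 9 (21.2% of all probe sets). Both orders use the same WT arrays, so the second does not stand apart from the first. The 3 KO cultures had a smaller range than the 3 WT cultures for all 9 genes, on the log2 scale (54.8% of all probe sets). For *Cox6a2* these ranges were 1.06 in KO and 2.04 in WT cultures, and for *Plac8* 0.32 in KO and 0.84 in WT cultures. In no signature gene did KO and WT values fail to overlap with KO higher, which was seen in 10.2% of all probe sets. The KO culture was higher in all 3 mice for 5 genes (*Ly6d*, *Lag3*, *Cox6a2*, *Upb1* and *Plac8*), against 21.3% of all probe sets.

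In WT cultures mouse 1 was above the mean of mice 2 and 3 by 0.66 (*Bst2*) to 1.74 (*Cox6a2*) on the log2 scale, and in KO cultures by 0.24 (*Bst2*) to 0.95 (*Cox6a2*). With the mouse as a block, which takes these differences out, 5 signature genes had an unadjusted p under 0.05 and were higher in KO (*Ly6d*, *Lag3*, *Cox6a2*, *Upb1* and *Plac8*), where 7.46% of all probe sets were. Their adjusted p-values in this limma fit were between 0.29 and 0.36. Without both arrays of mouse 1, 7 of the 9 had an unadjusted p under 0.05 and were higher in KO (9.77% of all probe sets), all but *Bst2* and *Lair1*. In that fit 2 probe sets were called higher in KO (0.00924%) and 106 lower (0.49%) at an adjusted p of 0.05, with no signature gene among them.

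Most other genes of pDC identity had much the same pattern. *Irf7* had the reverse order, at 0.55, 0.16 and 0.04 in mice 1, 2 and 3, and *Blnk* (-0.06) and *Itgax* (-0.28) had means below 0. Of 19 measured, 5 were higher in the KO culture of mouse 1, 18 in that of mouse 2 and 18 in that of mouse 3, and their median log2 difference was 0.26, with -0.12, 0.35 and 0.53 in mice 1, 2 and 3. Over all probe sets 49.8%, 52.4% and 56.2% were higher in KO in mice 1, 2 and 3. None of the 19 had an unadjusted p under 0.05, and 3 had with the block, all higher: *Tlr9*, the endosomal DNA sensor, *Cd300c*, a surface receptor, and *Spib*, an Ets factor of pDCs and B cells. *Tlr9* had 1164, 915 and 846 in the KO cultures and 1115, 613 and 412 in the WT cultures (log2 difference 0.56, standard error 0.36, limma adjusted p = 0.75). *Tcf4* had 3904, 2715 and 2373 in the KO cultures and 3896, 2064 and 1747 in the WT cultures, a log2 difference of 0.28 (standard error 0.34). Of the genes behind the sort, *Ptprc*, which encodes CD45, was at 0.03 (standard error 0.22). This value does not show the level of B220, the CD45R form used in the sort. *Itgax* (CD11c) was at -0.55, 0.18 and -0.48 in mice 1, 2 and 3.

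**Figure D3:**
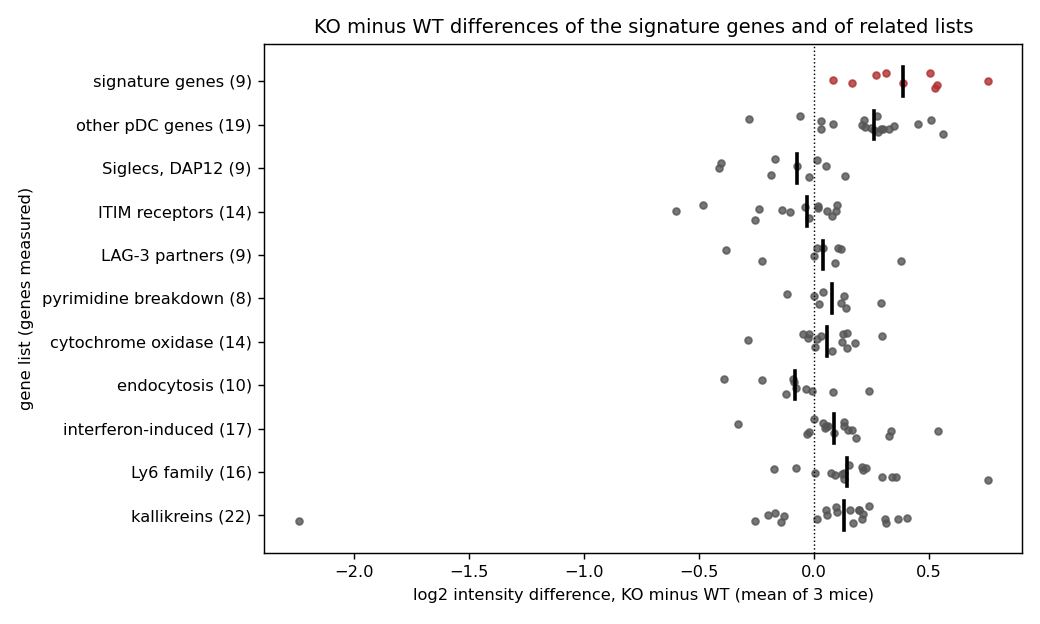
Log2 intensity difference, KO minus WT, mean of 3 mice (x axis), of every measured gene (points) in the signature list and in related lists (y axis, genes measured in brackets), with vertical strokes at the medians. The signature genes lie between 0.08 and 0.76 with a median of 0.38, and the other pDC genes have a median of 0.26, while the medians of the other lists lie between -0.08 and 0.14.

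Over the 6 arrays, the probe sets above background that were most like *Siglech* by Pearson's r of log2 values were *Arsb*, *Tspan13*, *Kmo*, *Slc44a2* and *Ptger4*, all with r of 0.997 or 0.998. They encode a lysosomal sulfatase, a tetraspanin, the kynurenine monooxygenase, a choline transporter-like protein and a prostaglandin E receptor. *Kmo* had 3112, 2173 and 1721 in the KO cultures of mice 1, 2 and 3, against 3412, 1597 and 1090 in the WT cultures, the same order as *Siglech*. The lowest r, between -0.999 and -0.997, belonged to *Ciao2a*, *Fkbp1a* and *Lxn*. *Lxn*, a carboxypeptidase inhibitor, had 153, 203 and 231 in the KO cultures and 139, 235 and 321 in the WT cultures. The other 8 signature genes had r with *Siglech* between 0.84 (*Ly6d*) and 0.99 (*Cox6a2*). The 6 arrays come from 3 mice, and mouse 1 lies apart from the others in both cultures, so these r are a description of 6 points that are not independent.

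Markers of other cell types moved with the same cultures. The 10 neutrophil markers summed to 618, 2508 and 4410 in the KO cultures of mice 1, 2 and 3, against 1449, 8700 and 9929 in the WT cultures. The 10 stromal markers summed to 601, 1789 and 1901 in KO and 633, 5235 and 5568 in WT cultures. The summed level of both was lowest in mouse 1 and lower in the KO than in the WT culture of each mouse. For the stromal sum the log2 difference was only -0.08 in mouse 1, against -1.55 in mice 2 and 3. In mouse 1, 4 of the 10 neutrophil and 3 of the 10 stromal markers were higher in KO. Some, such as *Ltf* (30.5 in KO, 42.8 in WT) and *Lox* (27.2 and 32.8), lay within the background there. *S100a8* and *S100a9* made up most of the neutrophil sum in both cultures of mice 2 and 3, at 3183 and 3834 in the WT culture of mouse 3. The sum thus mainly gives the level of these genes. *Mpo* and *Elane*, of the same list, had mean log2 differences of 0.44 (standard error 0.69) and 0.12 (standard error 0.31). The 10 macrophage markers summed to 4526, 17114 and 19219 in KO and 5043, 21413 and 21796 in WT cultures, and the 7 B cell markers to 1158, 2870 and 3185 in KO and 931, 4394 and 4087 in WT cultures.

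The signature genes had sums of 32869, 24357 and 22275 in KO and 33164, 18653 and 14664 in WT cultures. They were highest in mouse 1, and in mice 2 and 3 they ran the other way, higher in KO. In mouse 1 the KO and WT sums were nearly the same. At the level of single markers, 8 of the 10 neutrophil and all 10 stromal markers had a mean log2 difference below 0, with medians of -1.25 and -0.87, and so had 9 of 10 macrophage and 5 of 7 B cell markers. None of these passed an adjusted p of 0.05 in limma, with or without the block. Without mouse 1, 5 neutrophil, 8 stromal and 1 B cell marker passed as lower in KO. For NK cell markers the sum ran with the signature genes, but the median did not. The median over 8 markers was 0.20, with 0.27, 0.16 and 0.23 in mice 1, 2 and 3, and 3 markers were above the receptor background. The sum was 3336, 2669 and 2529 in KO and 3537, 1691 and 1066 in WT cultures. Most of this sum was *Klrd1*, at 3045, 2378 and 2149 in KO and 3299, 1431 and 799 in WT cultures, while the defining NK marker *Ncr1* had 27.4, 29.5 and 43.8 in KO and 24.1, 20.2 and 24.7 in WT cultures, all within the background. *Nkg7* had 81.9, 81.2 and 159 in KO and 50.3, 76.5 and 56.0 in WT cultures (limma adjusted p = 0.70). Its WT values in mice 1 and 3 lay within the background. The 7 T cell markers summed to between 927 and 1073 in KO and between 754 and 1123 in WT cultures, with a median of 0.17. The 10 markers of conventional dendritic cells had a median of -0.04, and *Clec9a*, a receptor of conventional dendritic cells that pDCs also carry in the mouse, was at 0.45, 0.51 and 0.75 on the log2 scale in mice 1, 2 and 3. *Plac8*, *Lair1* and *Bst2* are also found in cells other than pDCs, and the part of these other cells in the levels of the signature genes was not tested.

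**Figure D4:**
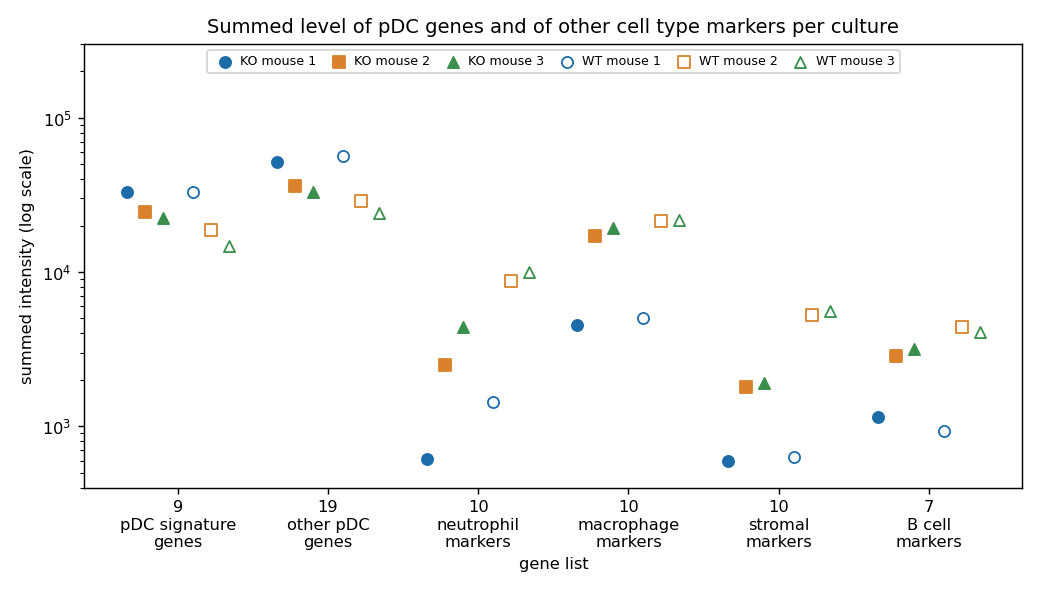
Summed intensity (y axis, log scale) of the signature genes, other pDC genes and markers of neutrophils, macrophages, stromal and B cells (x axis) in KO (filled) and WT (open) cultures, with a symbol for each mouse. In mice 2 and 3 the sum of the signature genes is higher in KO (24357 and 22275) than in WT (18653 and 14664), and the sums of the neutrophil and stromal markers are lower in KO.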

How the data were processed

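RNA of 6 sorted pDC cultures (3 KO, 3 WT) was hybridised to Affymetrix Mouse Gene 1.0 ST arrays from 200 ng of total RNA. The authors deposited intensities on a linear scale (3.07 to 19106 over 34760 probe sets), already normalized between arrays. Their background correction, normalization method and summary: not given in the sources used here. With arrays there is no depth of reads, and precision rests on 3 arrays a group. After a log2 transform, the 21640 probe sets with 1 symbol were compared, KO minus WT, in 2 groups with limma 3.58.1 in R 4.3.3 (two-sided, Benjamini-Hochberg, threshold 0.05, no filter). Probe sets with several symbols (1321) or none (11799) were left out.

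The labels give each mouse a KO and a WT culture and so pair them. After group means were taken off, arrays of the same mouse correlated at 0.81, 0.51 and 0.67 for mice 1, 2 and 3. The KO array of mouse 3 and the WT array of mouse 2 correlated at 0.50. For the KO array of mouse 2 and the WT array of mouse 3 the value was 0.42. These values thus do not clearly tell mouse 2 from mouse 3. Alternatives were a block for the mouse, quantile normalization, centring, leaving out dim probe sets, a floor at the 20th percentile, averaged probe sets, a trended and robust fit, array weights, and arrays or mice left out. The fits were tested on simulated data.

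The members and lists were chosen with earlier results of these data known. By rule the text names the members, up to 3 genes of each other list with the smallest p, the 5 highest and 3 lowest by r to *Siglech*, and the targeted genes. *H2-Aa*, *H2-Ab1*, *Cd4*, *Tyrobp*, *Cox6a1*, *Pacsin2*, *Klk7*, *Klk1b27*, *Tcf4*, *Ptprc*, *Itgax*, *Fcgr2b* and *Klrd1* are outside it and were chosen after their values were seen. So were *S100a8*, *S100a9*, *Mpo*, *Elane*, *Lox*, *Irf7* and *Blnk*. Promoters are from RefSeq, GRCm38.p6.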

Additional observations from a re-analysis of the deposited data

How the results depend on the processing

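No signature gene passed an adjusted p of 0.05 under any of the 17 other settings. The number with an unadjusted p under 0.05, 1 (*Ly6d*) in the fit of 2 groups, was 5 with the mouse as a block (replicate number), 3 with array weights and 0 with a floor at the 20th percentile of intensities. With 1 array left out it lay between 0 and 8, the highest without the WT array of mouse 1, and it was 7, 0 and 0 without both arrays of mouse 1, 2 or 3. The median log2 difference of the 9 genes, 0.38, was 0.56 with array weights, and 0.65, 0.31 and 0.22 without both arrays of mouse 1, 2 or 3. With 1 array left out it ran as low as 0.093 (WT of mouse 3) and as high as 0.89 (WT of mouse 1). *Siglech* had differences between -0.041 (WT of mouse 3 left out) and 0.63 (WT of mouse 1 left out), and *Lair1* between -0.16 and 0.43 for the same arrays. *Lair1* was also below 0 with the KO array of mouse 1 (-0.14), the WT array of mouse 2 (-0.019) or all of mouse 3 (-0.0097) left out, and the other 7 genes kept their direction in all 17. The number of probe sets called, 0, was 4 with the floor and 108 without both arrays of mouse 1. Quantile normalization and centring moved the median of the 9 to 0.45 and 0.35. Of the 5 genes most like *Siglech*, 4 were again among the 5 after centring. The cause of these changes was not tested.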
